A study of Mus musculus with 9 samples.

Results

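Stem and progenitor spermatogonia carry the mitotic reserve of the testis, and 10 genes known from these cells (Id4, Nanos2, Gfra1, Ret, Etv5, Zbtb16, Lin28a, Bcl6b, Upp1 and Tcl1) were followed by name through 3 groups of sorted germ cells. They were chosen by name for their known role, with no threshold on their values, and all 10 were found among the 24505 genes of the count table. Glial cell line-derived neurotrophic factor (GDNF), which is secreted by Sertoli and other somatic cells, binds the coreceptor GFRA1 and the receptor tyrosine kinase RET on stem cells. This signal maintains transcription factors of self-renewal such as ETV5, BCL6B and ID4, while NANOS2, an RNA-binding protein, holds back differentiation. ZBTB16 (PLZF) and the let-7 inhibitor LIN28A mark the wider pool of undifferentiated spermatogonia, which includes the progenitors that retinoic acid (RA) drives into differentiation.

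mRNA was sequenced from Uchl1-eGfp mice, a C57BL/6 line outcrossed with CD-1 in which the Uchl1 promoter drives EGFP. All mice took the RA synthesis inhibitor bis-(dichloroacetyl)-diamine by mouth at 100 µg/g of body weight from postnatal day (P) 1 to P10 or P11, as the submitters' records differ on the last day, and received 10 µl of RA at 10 µg/µl under the skin at P11. Intermediate and type B (In/B) spermatogonia were taken at P17 and RA-sufficient preleptotene (PL) spermatocytes at P19, both after the inhibitor had been withdrawn, and RA-deficient PL spermatocytes came from mice of P19 that had stayed on the inhibitor. Each group had 3 libraries of EGFP+ cells, and a preparation pooled the testes of at least 5 pups of a litter. Per the paper, In/B cells were sorted as EGFP bright and PL cells as EGFP dim. The In/B and PL groups differ in age and in sort gate as well as in stage, so these cannot be told apart. The paper calls the cell preparations independent but allows fewer than 3 per group, without saying which. Libraries of a group may therefore share a preparation, and p-values measure the spread between libraries.

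The libraries held 12612959 to 27042274 counts, and 14769 to 18434 genes had a count. Depth and genes detected differed by group. RA-deficient PL libraries held 25048240 to 27042274 counts with 14769 to 15327 genes. RA-sufficient PL libraries held 12612959 to 21833333 counts with 17541 to 18434 genes, and In/B libraries 16872425 to 26684393 counts with 16758 to 18002 genes. Markers of preleptotene and leptotene cells summed to 537 to 967 normalised read counts (CPM, scaled to library size) in In/B. They summed to 2316 to 3609 in RA-sufficient PL and 2882 to 3973 in RA-deficient PL libraries, so this sum went with the labelled stages. Rec8, 1 of these 8 markers, was not called, with log2 fold changes of -0.92 and -1.32 against In/B. Markers of differentiating spermatogonia, given below, stayed in the In/B range in RA-deficient PL replicates 1 and 2. A library in each group stood apart. RA-deficient PL replicate 3 had 20.3 CPM of Kit, the receptor that marks differentiating spermatogonia, against 561 and 521 CPM in replicates 1 and 2, and correlated with them at r = 0.874 and 0.873 over genes, where those replicates reached 0.969 with each other. In/B replicate 1 had the highest value of its group for all 10 stem and progenitor genes and the lowest sum of Sertoli markers, at 72.5 CPM against 382 and 245 CPM. RA-sufficient PL replicate 1 correlated with replicates 2 and 3 at r = 0.955 and 0.947, where those reached 0.989 with each other, had the lowest value of its group for 7 of the 10 genes, and held 841 CPM of differentiating markers against 467 and 428 CPM. Each result of the 10 genes below is therefore also given without these libraries where its call changed. For related genes only counts of calls are given this way, and for markers none.

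Markers of Sertoli cells, the somatic cells that surround the germ cells, moved strongly with the groups. The 10 Sertoli markers measured summed to 72.5 to 382 CPM in In/B, 3191 to 4166 CPM in RA-sufficient PL and 317 to 561 CPM in RA-deficient PL libraries. All 10 were called higher in RA-sufficient PL than in In/B and all 10 were called lower in RA-deficient than in RA-sufficient PL. Among them Sox9, a defining Sertoli factor, averaged 5.30 ± 3.14 CPM (SD, n = 3) in In/B, 59.6 ± 5.72 in RA-sufficient PL and 10.3 ± 6.06 in RA-deficient PL. The part of Sertoli RNA in the values below was not tested. Other sums moved with the groups as well. In In/B, RA-sufficient PL and RA-deficient PL in that order, Leydig markers summed to 9.56 to 15.9, 32.5 to 38.6 and 12.04 to 24.05 CPM, peritubular markers to 11.5 to 16.5, 39.3 to 44.4 and 32.8 to 48.9 CPM, and germ cell markers to 2416 to 2894, 3262 to 4286 and 5689 to 5725 CPM. Macrophage and blood markers stayed between 3.49 and 10.9 CPM and endothelial markers between 9.07 and 25.8 CPM in all 9 libraries. Differentiating spermatogonia markers summed to 1544 to 1910 CPM in In/B and 428 to 841 CPM in RA-sufficient PL, and to 1800, 1764 and 429 CPM in the RA-deficient PL libraries. Of these 8 markers, 5 were called lower and 1 higher in RA-sufficient PL than in In/B, and 4 were called higher, among them Kit, and 1 lower in RA-deficient than in RA-sufficient PL. Their part in the values below was not tested either.

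**Figure D1:**
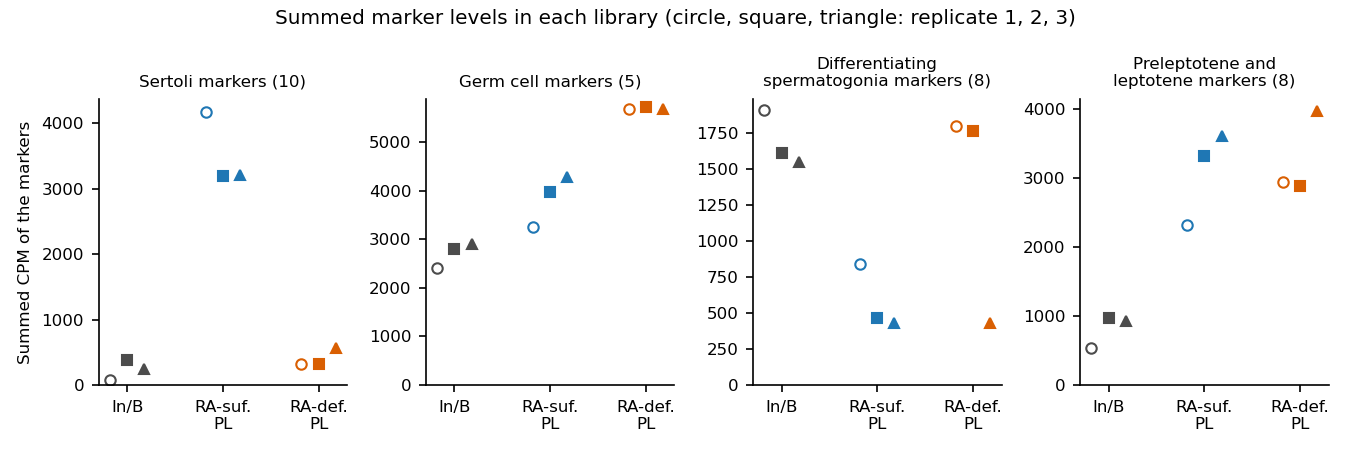
Summed CPM of marker genes in each library (circle, square and triangle for replicates 1, 2 and 3) for Sertoli cells, germ cells, differentiating spermatogonia, and preleptotene and leptotene cells, with the number of markers in each title. Sertoli markers lie at 3191 CPM or more in the RA-sufficient PL libraries alone, and RA-deficient PL replicate 3 falls to 429 CPM of differentiating markers, away from replicates 1 and 2.

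The stretches before the start sites of genes that moved in opposite directions between In/B and RA-sufficient PL are shown first. These groups had the same inhibitor and RA treatment, and only RA-deficient PL stayed on the inhibitor. Of the 10 genes, 7 are in the RefSeq promoter table used (GRCm38.p6), and the 250 bases upstream of the start are printed for the 3 that were higher in both PL groups (Id4, Gfra1 and Etv5) and for Lin28a and Upp1, which were lower in RA-sufficient PL. Capitals mark an E-box (CANNTG), an ETS core (CCGGAA or its complement TTCCGG) or a GC box (GGGCGG or CCGCCC), which were searched on both strands.
Id4, GRCm38.p6 chr13:48260866-48261115, plus strand: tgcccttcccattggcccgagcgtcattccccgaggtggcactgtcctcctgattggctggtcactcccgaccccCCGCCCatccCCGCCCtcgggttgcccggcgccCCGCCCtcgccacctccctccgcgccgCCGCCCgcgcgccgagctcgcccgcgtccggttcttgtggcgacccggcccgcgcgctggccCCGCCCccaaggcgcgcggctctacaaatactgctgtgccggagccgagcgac
Gfra1, GRCm38.p6 chr19:58455399-58455648, minus strand: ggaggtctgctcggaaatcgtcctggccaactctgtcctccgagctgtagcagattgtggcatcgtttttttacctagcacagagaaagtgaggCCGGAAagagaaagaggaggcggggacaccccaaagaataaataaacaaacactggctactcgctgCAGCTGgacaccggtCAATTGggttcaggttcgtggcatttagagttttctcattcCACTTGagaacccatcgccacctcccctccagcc
Etv5, GRCm38.p6 chr16:22439571-22439820, minus strand: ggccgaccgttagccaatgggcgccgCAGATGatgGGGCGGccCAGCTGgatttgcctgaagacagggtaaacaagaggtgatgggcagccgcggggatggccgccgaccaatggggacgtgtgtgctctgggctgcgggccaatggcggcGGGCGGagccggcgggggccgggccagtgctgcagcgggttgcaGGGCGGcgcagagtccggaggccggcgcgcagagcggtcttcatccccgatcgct
Lin28a, GRCm38.p6 chr4:134018817-134019066, minus strand: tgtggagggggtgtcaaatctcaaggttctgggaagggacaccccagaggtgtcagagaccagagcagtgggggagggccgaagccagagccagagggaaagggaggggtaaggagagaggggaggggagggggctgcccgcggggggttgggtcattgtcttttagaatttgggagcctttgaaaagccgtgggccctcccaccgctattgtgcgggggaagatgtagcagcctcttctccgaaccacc
Upp1, GRCm38.p6 chr11:9117758-9118007, plus strand: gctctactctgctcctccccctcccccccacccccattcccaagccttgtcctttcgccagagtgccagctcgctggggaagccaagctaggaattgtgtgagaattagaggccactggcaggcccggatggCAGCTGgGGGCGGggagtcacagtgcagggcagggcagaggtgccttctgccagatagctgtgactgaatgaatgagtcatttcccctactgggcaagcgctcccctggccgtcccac

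The promoters differed in base composition and in the motifs they held. Id4 had 75.6% G or C and 5 GC boxes, Etv5 had 71.2% with 3 GC boxes and 2 E-boxes, and Gfra1 had 52.4% with 3 E-boxes and an ETS core 156 bases upstream. Upp1 had an E-box and a GC box within the same stretch, and Lin28a had neither, nor an ETS core. The half-site of RA receptors (AGGTCA or TGACCT) was in 0 of the 7 promoters. Over all 32851 promoters of the table, 14.02% held this half-site, 66.2% an E-box, 32.7% a GC box and 12.0% an ETS core. These are matches of letters in a short window and say nothing about binding.

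The question of the first comparison was which stem and progenitor genes changed between In/B spermatogonia and RA-sufficient PL spermatocytes. They split: Id4, Gfra1 and Etv5 were higher in RA-sufficient PL, Zbtb16, Lin28a and Upp1 were lower, and Nanos2, Ret, Bcl6b and Tcl1 did not pass the test. A gene was called when edgeR's quasi-likelihood test gave a Benjamini-Hochberg adjusted p below 0.05 over all genes tested and the log2 fold change exceeded 1 in size. Such calls were common, with 45.4% of the 15001 genes tested called, 26.1% higher and 19.3% lower, so that 3 and 3 of 10 lie near that background. The libraries of the groups did not overlap for the same 6 genes, where 35.6% of all genes tested were higher and 35.9% lower without overlap. The median log2 fold change was -0.03 over the 10 genes and 0.04 over all genes. In bulk samples such as these, fewer cells of a type and less RNA per cell cannot be told apart.

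Zbtb16, a transcriptional repressor needed to keep spermatogonial stem cells, read 304, 172 and 172 CPM in In/B replicates 1 to 3, 41.9, 91.0 and 74.2 CPM in RA-sufficient PL, and 168, 145 and 227 CPM in RA-deficient PL. The RA-sufficient PL libraries lay below all of the others, while the In/B and RA-deficient PL ranges overlapped. Its log2 fold change was -1.59 (SE 0.32, adjusted p = 0.00231) in RA-sufficient PL relative to In/B and 1.39 (SE 0.28, adjusted p = 0.0148) for RA-deficient against RA-sufficient PL. Between RA-deficient PL and In/B it was -0.10 (SE 0.27, adjusted p = 0.801). These comparisons share libraries and are not independent of each other.

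Lin28a, whose protein blocks the maturation of let-7 microRNAs, followed the same order of groups. It read 98.6, 63.8 and 67.3 CPM in In/B, 16.4, 33.0 and 33.0 CPM in RA-sufficient PL, and 75.4, 72.8 and 71.5 CPM in RA-deficient PL. The RA-sufficient PL values were again lowest without overlap, and the RA-deficient PL libraries averaged 73.2 ± 1.98 CPM (SD, n = 3). Lin28a changed by a log2 fold of -1.42 (SE 0.29, adjusted p = 0.00267) in RA-sufficient PL relative to In/B, and 1.42 (SE 0.26, adjusted p = 0.0102) for RA-deficient against RA-sufficient PL.

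Upp1, which encodes uridine phosphorylase of pyrimidine salvage, had far lower CPM than Zbtb16 and Lin28a and the same order of RA-sufficient PL below In/B. Its values were 14.6, 10.4 and 10.3 CPM in In/B, 0.736, 4.06 and 2.91 CPM in RA-sufficient PL, and 21.6, 16.1 and 20.4 CPM in RA-deficient PL. Neither PL group overlapped In/B. The log2 fold change was -2.13 (SE 0.52, adjusted p = 0.00623) for RA-sufficient PL and 0.88 (SE 0.27, adjusted p = 0.0345) for RA-deficient PL against In/B, the latter short of the fold required for a call. Between RA-deficient and RA-sufficient PL it was 2.91 (SE 0.57, adjusted p = 0.0123).

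**Figure D2:**
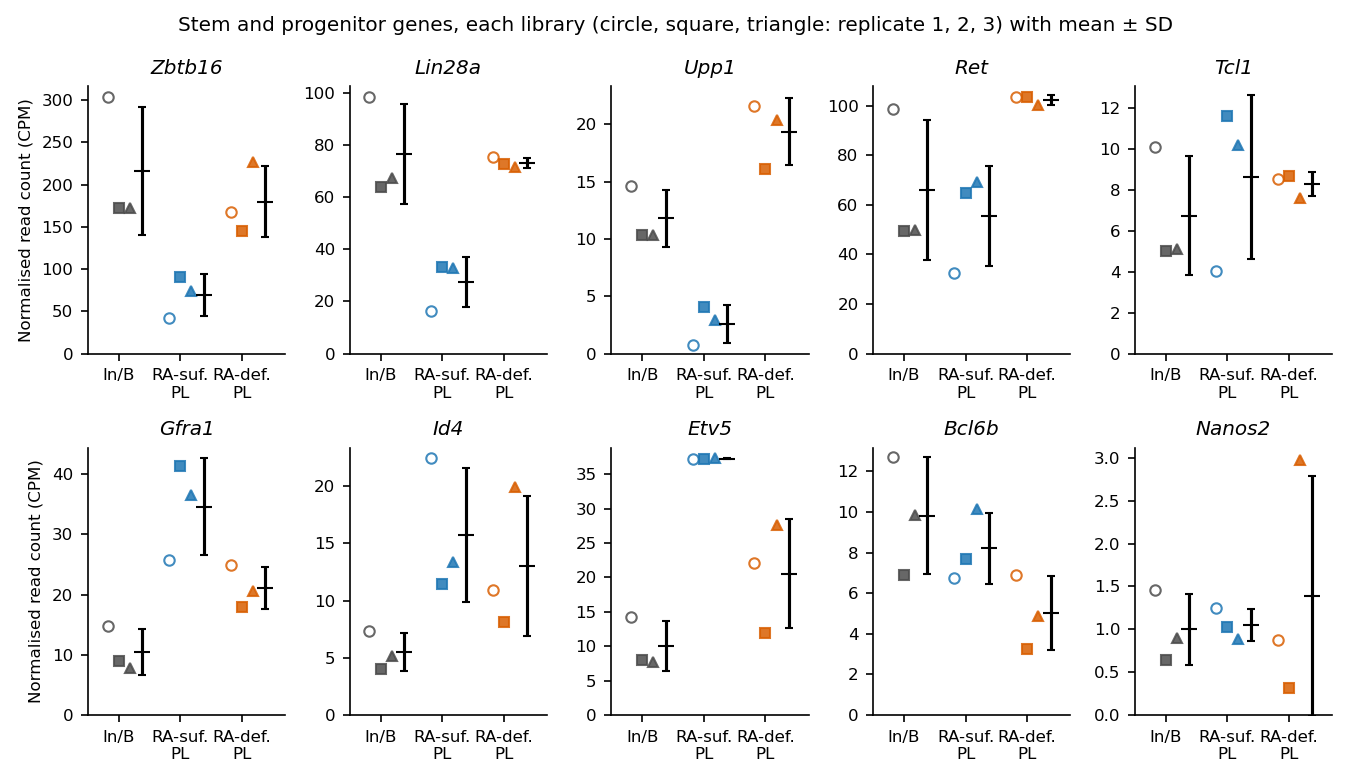
Normalised read counts (CPM) of the 10 genes in each library (circle, square and triangle for replicates 1, 2 and 3) with mean ± SD (n = 3) per group. Zbtb16, Lin28a and Upp1 are lowest in RA-sufficient PL, Gfra1, Id4 and Etv5 are lowest in In/B, and Nanos2 stays below 3 CPM.

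Gfra1, the GDNF coreceptor, read 14.8, 8.92 and 7.74 CPM in In/B, 25.7, 41.4 and 36.6 CPM in RA-sufficient PL, and 24.8, 17.9 and 20.5 CPM in RA-deficient PL. The 3 groups did not overlap. The log2 fold change was 1.78 (SE 0.30, adjusted p = 0.000968) for RA-sufficient PL and 1.17 (SE 0.32, adjusted p = 0.0222) in RA-deficient PL relative to In/B, and -0.71 (SE 0.25, adjusted p = 0.0754) between RA-deficient and RA-sufficient PL.

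Ret, the signalling partner of that coreceptor, showed other values. It read 98.5, 49.4 and 49.9 CPM in In/B, 32.4, 64.8 and 69.1 CPM in RA-sufficient PL, and 104, 103 and 100.0 CPM in RA-deficient PL. The RA-deficient PL libraries lay above all of the others, with In/B replicate 1 just under them. No comparison of Ret met both parts of the call. The log2 fold change was -0.20 (SE 0.35, adjusted p = 0.636) for RA-sufficient PL against In/B, 0.79 (SE 0.28, adjusted p = 0.0578) in RA-deficient PL relative to In/B, and 0.89 (SE 0.26, adjusted p = 0.0434) for RA-deficient against RA-sufficient PL. Without In/B replicate 1, Ret was called higher in RA-deficient PL than in In/B, at 1.21 (adjusted p = 0.00182).

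The ratio of receptor to coreceptor within a library does not depend on the scaling of a library and separated RA-sufficient PL from the other groups. Per kilobase of exon, Ret exceeded Gfra1 by 4.98, 4.13 and 4.81 times in In/B and by 3.11, 4.30 and 3.63 times in RA-deficient PL, while the ratio was 0.940, 1.17 and 1.41 in RA-sufficient PL. The In/B and RA-deficient PL ranges overlapped. The ratio of Zbtb16 to Id4 placed the groups in the same order, at 12.7 ± 1.62 in In/B, 4.83 ± 1.05 in RA-deficient PL and 1.67 ± 0.996 in RA-sufficient PL (SD, n = 3), with no overlap between groups. These ratios were not tested.

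**Figure D3:**
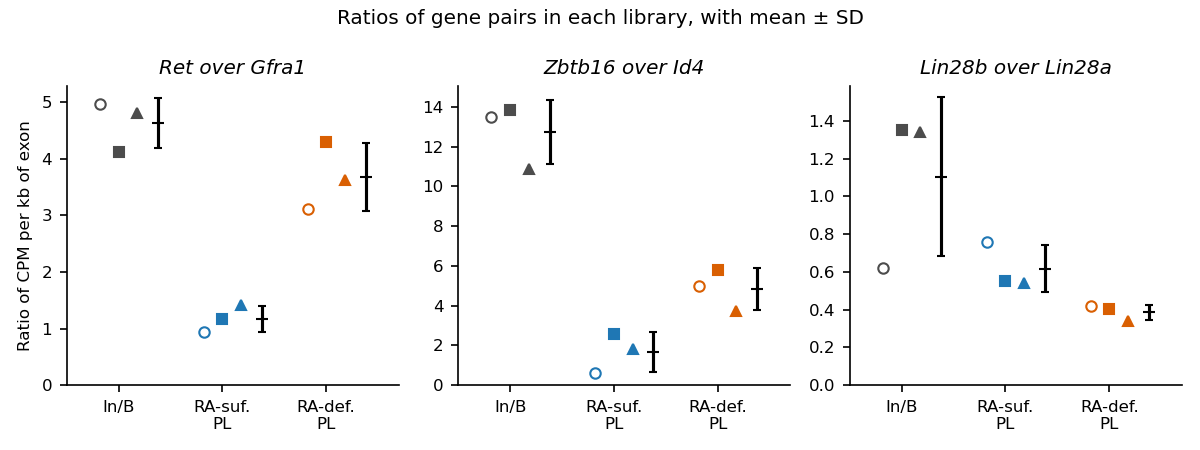
Ratios of CPM per kilobase of exon for 3 gene pairs in each library (circle, square and triangle for replicates 1, 2 and 3), with mean ± SD (n = 3) per group. Ret over Gfra1 is at most 1.41 in RA-sufficient PL and at least 3.11 elsewhere, and Lin28b over Lin28a is lowest in RA-deficient PL.

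Id4 and Etv5, transcription regulators found downstream of GDNF, were higher in both PL groups than in In/B. Id4, an inhibitor of basic helix-loop-helix factors, read 7.32, 4.05 and 5.14 CPM in In/B, 22.4, 11.5 and 13.4 CPM in RA-sufficient PL, and 10.96, 8.16 and 19.9 CPM in RA-deficient PL. The PL groups overlapped each other and lay above In/B. The log2 fold change of Id4 was 1.57 (SE 0.35, adjusted p = 0.00426) for RA-sufficient PL and 1.40 (SE 0.44, adjusted p = 0.0374) for RA-deficient PL against In/B. Its exons overlap those of a noncoding RNA (A330033J07Rik) on the other strand, and whether counting used strand is not given in the sources used here.

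Etv5, an ETS factor, read 14.2, 8.01 and 7.74 CPM in In/B, 37.2, 37.2 and 37.3 CPM in RA-sufficient PL, and 22.2, 11.9 and 27.5 CPM in RA-deficient PL. The RA-sufficient PL libraries were nearly equal and above all others, whereas RA-deficient PL replicate 2 fell inside the In/B range. The log2 fold change was 1.95 (SE 0.27, adjusted p = 0.000309) for RA-sufficient PL and 1.20 (SE 0.40, adjusted p = 0.0462) for RA-deficient PL against In/B. Between RA-deficient and RA-sufficient PL it was -0.87 (SE 0.31, adjusted p = 0.0853), and -1.12 (adjusted p = 0.0168) without RA-deficient PL replicate 3. Etv5 is also known from Sertoli cells. Its values, like those of Gfra1, and the sums of Sertoli markers were highest in RA-sufficient PL. The part of Sertoli RNA in them was not tested.

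Bcl6b, a repressor also known from endothelium, read 12.7, 6.92 and 9.83 CPM in In/B, 6.77, 7.70 and 10.1 CPM in RA-sufficient PL, and 6.92, 3.25 and 4.90 CPM in RA-deficient PL. The groups overlapped apart from a single near tie, and the log2 fold changes against In/B were -0.20 (SE 0.31, adjusted p = 0.585) and -0.81 (SE 0.43, adjusted p = 0.182). Tcl1, a coactivator of AKT kinase, read 10.1, 4.99 and 5.09 CPM in In/B, 4.05, 11.6 and 10.2 CPM in RA-sufficient PL, and 8.52, 8.68 and 7.61 CPM in RA-deficient PL. Its groups overlapped in all comparisons. Nanos2 was the scarcest of the 10 genes, with 26, 17 and 16 counts in In/B, 17, 17 and 20 in RA-sufficient PL, and 22, 8 and 68 in RA-deficient PL. With its SE of 0.50 to 0.98 on the log2 scale, even changes well above that size could go undetected. The highest value came from RA-deficient PL replicate 3.

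The second comparison asked which of these genes differed from In/B when RA synthesis stayed blocked. Id4, Gfra1 and Etv5 were called higher in RA-deficient PL and none of the 10 was called lower by edgeR's quasi-likelihood test, where 23.2% of the 14877 genes tested were called, 11.4% higher and 11.8% lower. Without overlap between libraries 4 genes were higher (Id4, Gfra1, Ret and Upp1) and Bcl6b was lower, against 21% and 33.6% of all genes. At an unadjusted p below 0.05 there were 5 higher and 0 lower, and DESeq2 also called 3 and 0. The median log2 fold change was 0.71 over the 10 genes and 0.00 over all genes. The 3 calls did not hold throughout. Without RA-deficient PL replicate 3 only Gfra1 was called, and without In/B replicate 2, In/B replicate 3 or RA-deficient PL replicate 1 the count was 0, as it was with library size as the only scaling. Without In/B replicate 1 the 4 called were Gfra1, Etv5, Ret and Upp1, and Id4 was not called (adjusted p = 0.0509).

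The third comparison set the PL groups against each other, which differ in whether the inhibitor was continued after the RA injection. Zbtb16, Lin28a and Upp1 were called higher in RA-deficient PL and none of the 10 was called lower, where 15.5% of the 15352 genes tested were called, 4.47% higher and 11% lower. Without overlap between libraries 4 genes were higher (the same 3 and Ret) and 2 lower (Gfra1 and Etv5), against 20.1% and 27.3% of all genes. At an unadjusted p below 0.05 there were 4 higher and 2 lower, and DESeq2 called 3 and 0. The median log2 fold change was 0.17 over the 10 genes and -0.09 over all genes. All 3 calls held without RA-deficient PL replicate 3, while without RA-sufficient PL replicate 3 only Lin28a was called, with Zbtb16 and Upp1 at adjusted p = 0.0544 and 0.0519. All 3 also held without RA-sufficient PL replicate 1. The lower group in this comparison, RA-sufficient PL, held the most Sertoli marker RNA, and 4 of the 8 markers of differentiating spermatogonia were called higher along with these genes, so the direction was not shown to be particular to stem and progenitor genes. In RA-deficient PL replicate 3 those 8 markers summed to 429 CPM, within the RA-sufficient PL range of 428 to 841 CPM.

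**Figure D4:**
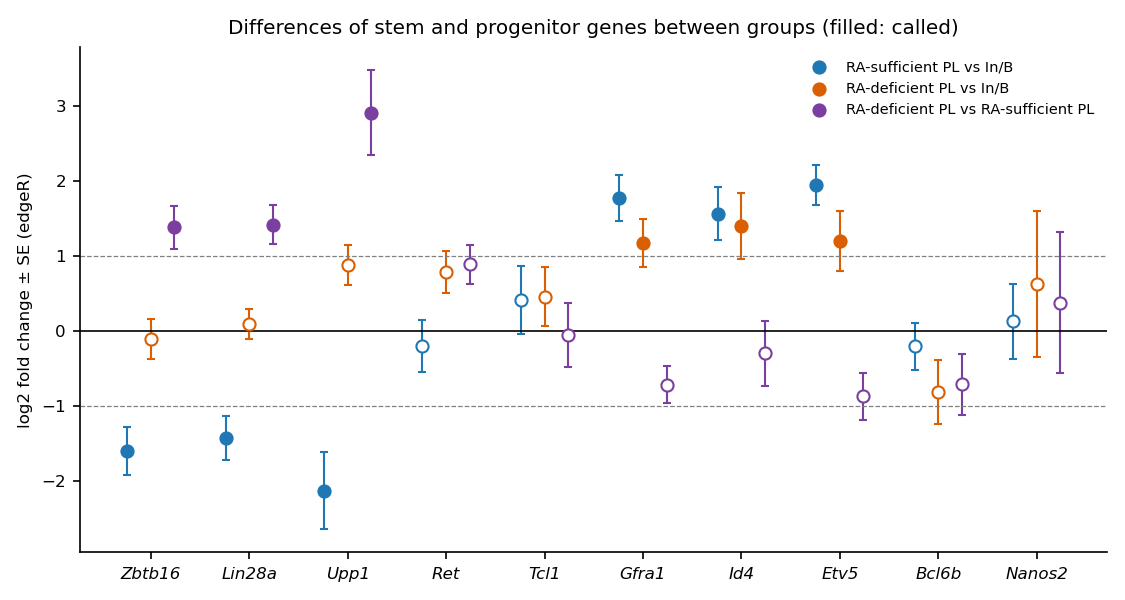
Log2 fold change ± SE from edgeR for the 10 genes in the 3 comparisons, with filled points for called genes and dashed lines at the fold required. Zbtb16, Lin28a and Upp1 are called lower in RA-sufficient PL than in In/B and higher in RA-deficient than in RA-sufficient PL, and Id4, Gfra1 and Etv5 are called higher than In/B in both PL groups.

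Levels between genes were compared per kilobase of exon. In In/B the order ran from Zbtb16 (42.3 ± 14.9 CPM per kb, SD, n = 3) and Lin28a (21.8 ± 5.46) through Ret (8.98 ± 3.84) and Upp1 (6.01 ± 1.27) to Nanos2 (0.695 ± 0.288). RA-sufficient PL was flatter, with Zbtb16 at 13.5 ± 4.89, Id4 at 9.49 ± 3.54, Etv5 at 9.08 ± 0.0188, Lin28a at 7.84 ± 2.74 and Ret at 7.55 ± 2.73 CPM per kb. Neighbours in that order did not differ by more than the larger SD of the pair. In RA-deficient PL, Zbtb16 (35.3 ± 8.24), Lin28a (20.9 ± 0.565) and Ret (13.9 ± 0.269) led again. Over the 9 libraries, which share the group structure, log2 CPM of Zbtb16 and Lin28a correlated at r = 0.969, Lin28a and Upp1 at 0.963, and Gfra1 and Etv5 at 0.936, while Etv5 and Lin28a stood at -0.66.

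Paralogs of these genes did not always keep to the same order. Lin28b, which shares the let-7 function of Lin28a, averaged 205 ± 41.0 CPM in In/B, 41.8 ± 8.31 in RA-sufficient PL and 73.1 ± 9.44 in RA-deficient PL (SD, n = 3). It was called lower than In/B in both PL groups, with log2 fold changes of -2.23 (adjusted p = 3.78e-05) and -1.32 (adjusted p = 0.0011), whereas Lin28a had 0.10 (SE 0.20, adjusted p = 0.743) in RA-deficient PL. Lin28b over Lin28a per kilobase was 0.386 ± 0.041 in RA-deficient PL and 1.10 ± 0.420 in In/B. Nanos3, a progenitor gene, read 10.0 ± 1.98, 2.59 ± 1.26 and 13.6 ± 5.88 CPM in the 3 groups in that order and was called lower in RA-sufficient PL than in In/B (log2 fold change -1.87) and higher in RA-deficient than in RA-sufficient PL (2.39, adjusted p = 0.0215). Nanos1 was called lower than In/B in both PL groups, at -2.99 and -1.75. Etv4, an ETS relative of Etv5, did not pass the test, with 0.17 and 0.11 against In/B. Etv1, another ETS relative, was called higher in RA-sufficient PL than in In/B (4.51) and was not tested in RA-deficient PL against In/B.

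Of 71 related genes listed for the stem and progenitor programme, 61 were tested in RA-sufficient PL against In/B, with 10 called higher and 21 lower (26.1% and 19.3% of all genes tested) and a median log2 fold change of -0.35. Between RA-deficient PL and In/B 6 were called higher and 6 lower of 61 (11.4% and 11.8% of all genes), and between the PL groups 14 were called higher and 6 lower of 62 (4.47% and 11% of all genes). These last 20 calls became 11, 8 and 11 without RA-sufficient PL replicates 1, 2 and 3 and 13 without RA-deficient PL replicate 2. Of the progenitor genes, 4 of 6 were called lower in RA-sufficient PL than in In/B, where 19.3% of all genes were, and 4 of 6 higher in RA-deficient than in RA-sufficient PL, where 4.47% of all genes were, with medians of -1.98 and 2.06. The lists were chosen with earlier results of these data known. Both comparisons share the RA-sufficient PL libraries and are not independent of each other. Sox3, a factor of committed progenitors, averaged 28.5 ± 4.74, 6.01 ± 1.18 and 42.1 ± 13.4 CPM in In/B, RA-sufficient and RA-deficient PL, and Neurog3 averaged 4.71 ± 0.503, 0.870 ± 0.349 and 5.49 ± 2.76 CPM. Magea4 went against this list and was called higher in both PL groups than in In/B, at 2.49 and 2.80.

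Of 25 tested undifferentiated spermatogonia genes, 3 were called higher and 9 lower in RA-sufficient PL than in In/B, beside 26.1% and 19.3% of all genes. Between RA-deficient and RA-sufficient PL 6 were called higher and 0 lower, beside 4.47% and 11% of all genes. Sall1, a zinc finger factor, averaged 60.6 ± 14.9, 9.87 ± 5.00 and 61.9 ± 6.51 CPM in In/B, RA-sufficient and RA-deficient PL. Uchl1, whose promoter drives the sorted reporter, averaged 2820 ± 727, 521 ± 94.3 and 1535 ± 478 CPM, and is counted in this list although the sort bears on it. Among 20 tested genes of GDNF and FGF signalling, Dusp6, an ERK phosphatase, read 34.1, 28.3 and 30.9 CPM in RA-sufficient PL and 13.0, 3.61 and 2.58 CPM in RA-deficient PL, and 2 genes of this list were called higher and 4 lower between them. Etv1, an ETS relative of Etv5, had 39, 46 and 61 counts in RA-sufficient PL against 0, 7 and 1 in In/B and 8, 1 and 1 in RA-deficient PL. Nrtn, a GDNF family ligand, had 156, 196 and 206 counts in RA-deficient PL and at most 35 in the other libraries. Fgfr1, an FGF receptor, averaged 91.5 ± 12.5, 13.5 ± 1.34 and 41.6 ± 10.1 CPM in In/B, RA-sufficient and RA-deficient PL. The largest calls between RA-deficient PL and In/B also included Utf1, Egr3 and the Tcl1 relative Mtcp1, with log2 fold changes of 2.40, 2.28 and 2.16.

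**Figure D5:**
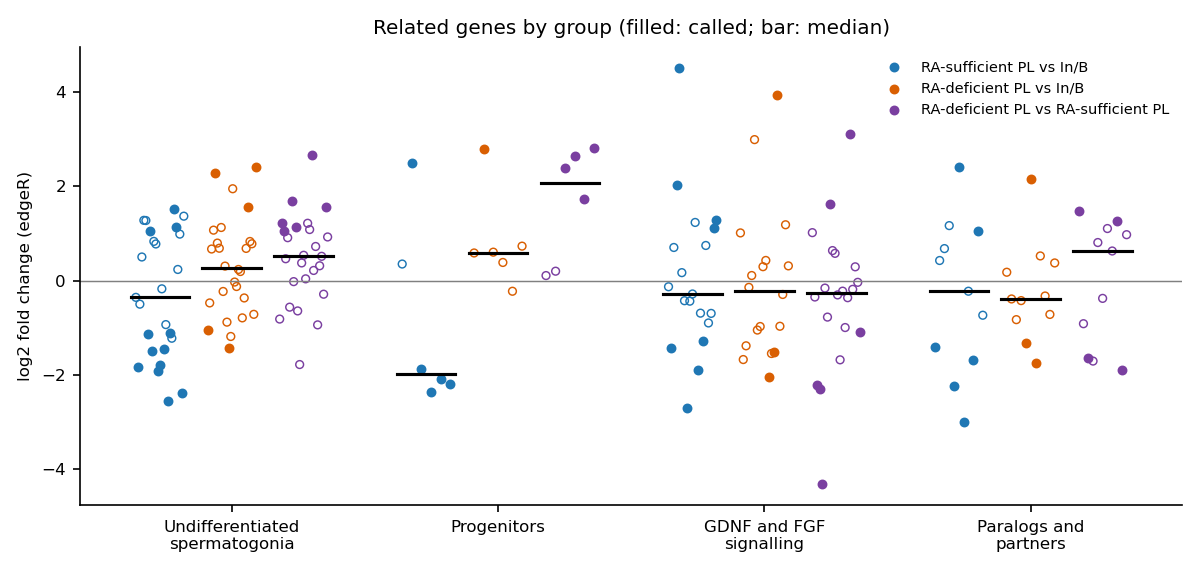
Log2 fold change from edgeR of the related genes by list and comparison, with filled points for called genes and a bar at the median. The 6 progenitor genes have medians of -1.98 for the first comparison and 2.06 for the third.

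In the mouse genome (build mm9, GENCODE M1) the 10 genes lie apart except for a chromosome shared by Bcl6b and Upp1. Zbtb16 spans chr9:48462416-48644050 on the minus strand, Lin28a chr4:133559245-133574756 (minus) and Upp1 chr11:9018106-9036173 (plus). Gfra1 spans chr19:58310094-58530399 (minus), Ret chr6:118101766-118147762 (minus), Id4 chr13:48356796-48359405 (plus) and Etv5 chr16:22381382-22439792 (minus). The exons of Gfra1 and Lin28a also overlap noncoding transcripts on the other strand, Gm16277 and Gm13061. These mm9 positions are not on the same scale as the GRCm38.p6 positions of the promoters.

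By the rule for genes of like pattern, genes with the highest correlation of log2 CPM over the 9 libraries, among 11146 genes, were named for the 3 most abundant members. They were Irf1 (r = 0.984) and Zfyve26 (0.982) for Zbtb16, Egr1 (0.975) for Ret, and Nptx1 (0.991) and Foxf1 (0.990) for Lin28a. The points share libraries, groups and scaling, so these values are a description. Irf1 read 40.4, 26.99 and 25.4 CPM in In/B and 6.33, 18.4 and 12.6 CPM in RA-sufficient PL, and Egr1 read 163, 154 and 181 CPM in RA-deficient PL against at most 118 CPM in the other libraries.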

How the data were processed

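The authors sorted EGFP+ germ cells, made stranded mRNA libraries, and per the labels used cutadapt 1.9, STAR 2.5.2b on mm9 and featureCounts. They deposited raw read counts of 24505 genes in 9 libraries, and 0 columns were left unused. The annotation used and the strand setting of the counting are not given in the sources used here.

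Groups of 3 libraries were compared in pairs with edgeR 4.0.16 in R 4.3.3 (TMM scaling, filterByExpr, quasi-likelihood test, Benjamini-Hochberg adjustment over all genes tested). Calls needed a log2 fold change over 1 in size and an adjusted p under 0.05. CPM were computed after TMM scaling over all 9 libraries, and 3 counts correspond to 0.113 to 0.221 CPM. The spread between libraries set the precision of the tests. DESeq2 1.42.0, other scalings and filters, a single fit of all libraries, testing for more than a fold change of 2, a replicate block and leaving out each library were alternatives. The scripts were tested on simulated data. The members, related genes and markers were chosen with earlier results of these data known. The text names the 10 members, the 5 related genes of at least 1 CPM with the largest called change per comparison, some paralogs, markers that moved with a result, and the 2 genes most like each of the 3 most abundant members. A single gene under that last rule is not reported here. Dusp6 and Uchl1 were named after their values were seen.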

Additional observations from a re-analysis of the deposited data

Results flagged for a closer look

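Differences between the PL groups, in which effects under the same step from In/B diverged, were called by edgeR's quasi-likelihood test for these named genes. Among the stem and progenitor genes the log2 fold change of RA-deficient against RA-sufficient PL was 1.39 for Zbtb16, 1.42 for Lin28a and 2.91 for Upp1, higher in 3 of 3 RA-deficient PL libraries for each. Among the related genes it was 3.10 for Nrtn, 2.81 for Sox3, 2.65 for Sall1, 2.65 for Neurog3 and -4.31 for Etv1, a gene with 0 to 8 counts in the In/B and RA-deficient PL libraries. It was also 2.39 for Nanos3, 1.62 for Fgfr1, 1.56 for Uchl1, whose promoter drives the sorted reporter, -2.29 for Dusp6, 3.54 for Kit and -2.54 for Sox9. The value of Kit had an SE of 1.03 (adjusted p = 0.0443). RA-deficient PL replicate 3 held far less Kit than the other libraries of its group. Markers of differentiating spermatogonia moved as Zbtb16, Lin28a and Upp1 did by group, with 4 of 8 called higher, 1 called lower and a median of 1.07. RA-deficient PL replicate 3 is a single library that stood apart from its group. There these markers summed to 429 CPM, within the RA-sufficient PL range of 428 to 841 CPM. Zbtb16, Lin28a and Upp1 read 227, 71.5 and 20.4 CPM in that library. The summed Sertoli markers moved the other way, at 3191 to 4166 CPM in RA-sufficient and 317 to 561 CPM in RA-deficient PL, and the part of either set in these differences was not tested.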

How the results depend on the processing

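Of 387 alternative values of the 30 log2 fold changes of the 10 genes, 348 kept their direction and their side of the threshold, 18 lost and 4 gained a call, and 17 changed sign. The 6 calls in RA-sufficient PL against In/B stayed 6 in each of the alternatives except the test against a fold change of 2, which called 4. In RA-deficient PL against In/B the 3 calls became 0 with library size as the only scaling and 0 with the test against a fold change of 2, and 0 to 4 when a library was left out. That scaling moved the median of all genes from 0.00 to -0.31 and the share of calls that were higher from 49.1% to 28.9%, and from 28.8% to 17.5% between the PL groups. The test against a fold change of 2 gave shares of 63.5% and 12.8%. Between the PL groups the 3 member calls became 0 with that test and 1 to 4 when a library was left out. Against a fold change of 2, 18 (from 31), 4 (from 12) and 5 (from 20) related genes were called in the comparisons in the order of the report, and leaving out a library gave 8 to 25 related genes between the PL groups. Etv5 was called lower in RA-deficient than in RA-sufficient PL with library size as the only scaling (-1.05, adjusted p = 0.0492).

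Changes of sign were all in values that did not pass the test. When a library was left out, values in RA-sufficient PL against In/B ranged from -0.14 to 0.50 for Nanos2, from -0.40 to 0.21 for Ret and from -0.43 to 0.026 for Bcl6b. In RA-deficient PL against In/B they ranged from -0.57 to 1.06 for Nanos2, from -0.30 to 0.23 for Zbtb16 and from -0.047 to 0.33 for Lin28a, and Lin28a was -0.22 with library size only and -0.028 with all 9 libraries in a single fit. Between the PL groups they ranged from -0.71 to 0.085 for Id4, from -0.80 to 0.88 for Nanos2 and from -0.38 to 0.22 for Tcl1. The cause was not tested. With the replicate number as a block, Nanos2 was -0.17 and Tcl1 0.060 between the PL groups, the member calls stayed 6, 3 and 3, related calls were 26, 9 and 17, and the block changed no other call of the 10 genes. Libraries of the same number did not deviate together, with correlations from -0.32 to 0.29, so the numbers were not taken as pairs. Nanos2 was left out by the filter of a mean of at least 50 counts.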
